A study of Homo sapiens with 4 samples.

Results

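The mitochondrial genome transcripts are the 37 genes that the deposited count table places on chrM, chosen by that position alone out of 63856 genes in all, and they comprise 13 mRNAs, 2 rRNAs and 22 tRNAs. They were measured by RNA-seq in MCF10A, a non-tumorigenic epithelial line from human breast. Wild type (WT) cells, which carry no vector, were compared with HSF1-pLVX cells, which were transduced with a lentivirus made from the pLVX-Puro plasmid with an HSF1 cDNA insert and then selected as a stable puromycin-resistant population. HSF1 is the transcription factor that drives the heat shock response. Both variants were grown in DMEM/F12 with horse serum, insulin, hydrocortisone, EGF and cholera toxin, and 2 biological replicates of each were sequenced. Cells with the empty vector were not analysed here, so the vector, the selection and HSF1 itself cannot be told apart. Whether a replicate number stands for a separate culture is not given in the labels, so the p-values refer to these 4 libraries only. In the gene test used below they rest on a spread shared by genes at like levels rather than on each gene's own.

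The mitochondrial genome is a small circle that is transcribed from both strands into long precursors by its own RNA polymerase, POLRMT. The mRNAs and rRNAs of one precursor lie between tRNAs, and cutting the tRNAs out releases the RNAs on either side, so that the final level of each RNA depends on its processing and stability as well as on transcription. All of the proteins encoded there are subunits of the respiratory chain or of ATP synthase, while every enzyme that copies, transcribes, processes or degrades this genome comes from nuclear genes.

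Human chrM of hg38 is 16569 bases long, and 15358 of these lie in one of the 37 genes. All 37 have the same position and strand in GENCODE release 44 as in the count table. The single mRNA on the minus strand is MT-ND6 (chrM:14149-14673), together with 8 of the tRNAs. The 3′ ends of 6 mRNAs are shown because they stop inside a codon that is completed only by polyadenylation and are followed, with 0 bases between, by a tRNA of the same strand. The 4 mRNAs called higher in HSF1-pLVX cells belong to these 6, and none of the 7 mRNAs with a whole last codon was called. This division was noticed after the values were seen and is given without a test. It belongs to the fit used below, which takes replicate number as a block. Without that block MT-ATP8, which ends in a whole codon, was called higher as well. DESeq2 with the block called 3 mRNAs higher, MT-ND1, MT-CO3 and MT-ND3, and the calls also rested on single libraries. Each line shows the last 24 bases of whole codons in lower case and the incomplete stop codon in capitals, 5′ to 3′ on the plus strand of hg38.
MT-ND1: atctccagcattccccctcaaaccTA
MT-ND2: tccccttttatactaataatcttaT
MT-CO3: gtctccatctattgatgagggtctT
MT-ND3: caaaaaggattagactgaaccgaaT
MT-ND4: gacatcattaccgggttttcctctT
MT-CYB: gaaaacaaaatactcaaatgggccT

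The first 4 of these lines are the mRNAs called higher, and MT-ND4 and MT-CYB were not called. The tRNAs that follow them are MT-TI, MT-TW, MT-TG, MT-TR, MT-TH and MT-TT in the same order. Beyond the ends, the 4 called mRNAs were between 346 and 1042 bases long with a GC content of 40.2 to 47.7%, and the 9 others were between 207 and 1812 bases long with 39.6 to 46.3%, so that the ranges overlapped.

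Reads can be shared where genes overlap, and the longest overlap is printed here because MT-ATP8 and MT-ATP6 are read from it in different frames. It covers 46 bases, chrM:8527-8572, and the capitals mark the start codon of MT-ATP6 and the stop codon of MT-ATP8.
MT-ATP8 and MT-ATP6 overlap: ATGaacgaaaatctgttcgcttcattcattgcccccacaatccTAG

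Of the tRNAs, the 3 with the most counts (MT-TC, MT-TY and MT-TP), the one with the largest log2 fold change (MT-TD) and the one with the fewest counts (MT-TN) are shown in their own orientation, with the anticodon in capitals. MT-TC, MT-TY, MT-TP and MT-TN lie on the minus strand, at chrM:5761-5826, chrM:5826-5891, chrM:15956-16023 and chrM:5657-5729. MT-TD lies on the plus strand at chrM:7518-7585.
MT-TC: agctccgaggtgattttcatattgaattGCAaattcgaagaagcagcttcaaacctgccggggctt
MT-TY: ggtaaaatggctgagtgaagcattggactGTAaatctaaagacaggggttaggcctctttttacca
MT-TP: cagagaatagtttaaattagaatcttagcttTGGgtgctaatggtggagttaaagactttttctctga
MT-TD: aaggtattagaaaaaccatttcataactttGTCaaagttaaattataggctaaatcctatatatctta
MT-TN: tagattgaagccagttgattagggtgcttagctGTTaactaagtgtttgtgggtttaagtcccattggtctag

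The libraries held between 18688109 and 24184285 counts. Levels are given below as CPM, which are TMM-normalized counts scaled to 1e6 per library, and the variants were tested gene by gene over 15830 genes with edgeR (quasi-likelihood test). HSF1 itself stood at 194.8 ± 7.94 CPM in WT and 990.5 ± 11.46 CPM in HSF1-pLVX cells (SD, n = 2), a log2 fold change of 2.35 with an adjusted p of 5.77e-55, which fits the labels. The 8 epithelial markers examined were detected in every library, at levels that differed between the variants (KRT5 rose by 1.12 and TP63 by 3.48 on the log2 scale, and the other 6 fell). Of 12 markers of fibroblasts, endothelium and leukocytes, 10 were below 1 CPM in both groups, and PTPRC, which marks leukocytes, had 0 counts in all 4 libraries. The exceptions were the fibroblast markers COL1A1, with 8.79 CPM in WT and 9.96 CPM in HSF1-pLVX cells, and DCN, with 0.107 and 4.06 CPM, and their part in the results below was not tested.

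The share of the library that came from chrM was higher in both HSF1-pLVX libraries than in either WT library, for each class of RNA. All 37 genes together held 8.48% and 7.54% of the counts in WT replicates 1 and 2, and 9.84% and 10.97% in HSF1-pLVX replicates 1 and 2. The group means were 8.01 ± 0.663% and 10.4 ± 0.801% (SD, n = 2), a difference of 2.39 percentage points and a ratio of 1.30. The libraries of the groups did not overlap, and the higher of the pair was replicate 1 in WT but replicate 2 in HSF1-pLVX cells. The exact two-sided permutation test over libraries gave p = 0.333 for this and for each share below, which is the smallest value that 2 libraries against 2 can give. With bulk RNA, a change in the number of mitochondria-rich cells and a change in RNA per cell cannot be told apart.

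The mRNAs, which make up most of these counts, held 7.21% and 6.26% of the WT libraries against 8.14% and 9.05% of the HSF1-pLVX libraries, with a ratio of means of 1.28. The rRNAs held 1.25% in both WT libraries against 1.65% and 1.87%, a ratio of 1.41. Since the libraries were depleted of ribosomal RNA, these shares describe what escaped depletion. The tRNAs held 0.0280% and 0.0277% against 0.0420% and 0.0455%, a ratio of 1.57. The WT libraries differed from each other by more in mRNA than in rRNA or tRNA, the SD being 0.667 percentage points for mRNA and 0.00476 for rRNA. The widest 95% Wilson interval of a library reached 0.0126 percentage points to either side for mRNA, 0.00596 for rRNA and 0.000938 for tRNA. Such an interval covers counting error within a library and not the spread between libraries. The differences between the group means were 1.86, 0.510 and 0.0159 points for mRNA, rRNA and tRNA. Between the HSF1-pLVX libraries the SD was 0.641, 0.157 and 0.00249 points, above the reach of that widest interval in each class. Between the WT libraries the SD was below that reach for rRNA and tRNA. A 95% interval reaches further than a SD of counting error, so this does not place the WT spread below counting error. Relative to the mRNA counts, rRNA counts were 17.3% and 20.0% in WT and 20.3% and 20.7% in HSF1-pLVX cells, and tRNA counts were 0.389% and 0.442% against 0.516% and 0.503%. A pair of nuclear RNAs that mark the nuclear part of a total RNA sample also differed, since MALAT1 rose by 0.79 (adjusted p = 0.00342, edgeR) and NEAT1 by 0.89 (adjusted p = 4.50e-06) on the log2 scale. Their part in the shares was not tested.

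**Figure D1:**
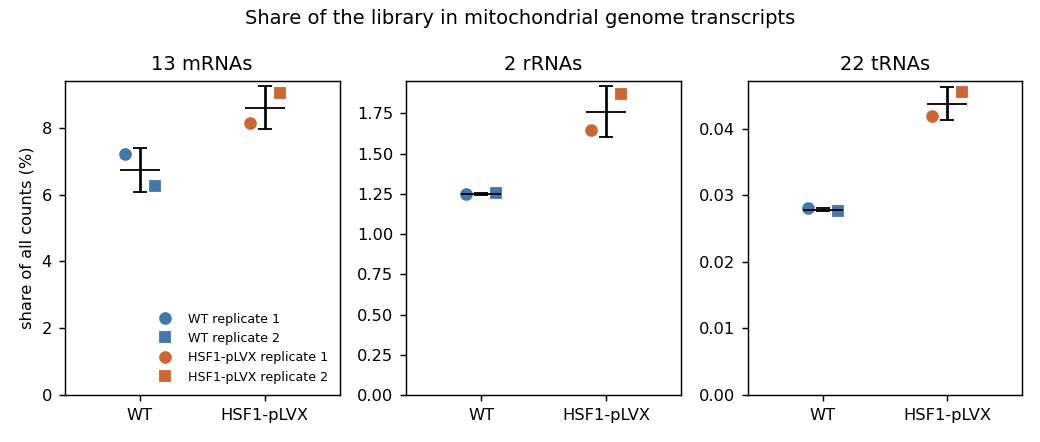
Share of all counts of each library that fell on the 13 mRNAs, the 2 rRNAs and the 22 tRNAs of chrM, in percent. Points are libraries (blue WT, orange HSF1-pLVX, circles replicate 1, squares replicate 2), the horizontal line is the mean and the bars are 1 SD. In each class both HSF1-pLVX libraries lie above both WT libraries, and the mRNA shares run from 6.26% to 9.05%.

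Among single genes, 36 of the 37 had enough counts to be tested, and with a threshold of 0.05 on the adjusted p 19 of them were called higher after HSF1 overexpression, while 0 were called lower. For comparison, 32.5% of all tested genes were called higher and 32.7% lower. The 36 genes had a median log2 fold change of 0.47, against 0.02 over all tested genes. In 26 of the 36, both HSF1-pLVX libraries lay above both WT libraries, an order that 42.1% of all tested genes showed. MT-TD is among the 19 and the 26, and MT-TR among the 26. Both passed the filter on low counts only through the HSF1-pLVX libraries, where they were higher. By class, 4 of 13 mRNAs, 1 of 2 rRNAs and 14 of 21 tested tRNAs were called higher, so that in this fit the mRNAs with 30.8% lay near the share of all genes and the tRNAs with 66.7% above it. The tRNA share depended on the fit. It was 57.1% without the replicate block, where 32.7% of all tested genes were called higher. DESeq2 with the block called 6 tRNAs higher, and its share over all genes was not recorded. Because chrM genes are very abundant, the tested genes at or above the level of the lowest chrM mRNA are also of use for comparison. There were 78 such genes, and 15 of them were the chrM mRNAs and rRNAs themselves. Of the 78, 33 were called higher and 24 lower, the called chrM mRNAs and rRNA included.

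Complex I, the NADH dehydrogenase that feeds electrons into the chain, has 7 subunits encoded on chrM, and 3 of the 7 mRNAs rose. MT-ND1 (chrM:3307-4262), which encodes a core subunit of the membrane arm, had 4388 and 3672 CPM in WT replicates 1 and 2 and 5489.5 and 6658 CPM in HSF1-pLVX replicates 1 and 2. The groups did not overlap, and the log2 fold change was 0.59 (SE 0.231, adjusted p = 0.0180). MT-ND2 (chrM:4470-5511), which encodes another subunit of that arm, had 4188 and 3397 CPM against 5487 and 6566 CPM. It showed the largest change among the mRNAs, with a log2 fold change of 0.67 (SE 0.230, adjusted p = 0.00651). DESeq2's Wald test gave a similar change of 0.64 but no call for MT-ND2 (adjusted p = 0.0928). MT-ND3 (chrM:10059-10404), whose product lies at the junction of the membrane and matrix arms, had 1019 and 1055 CPM against 1302 and 1512 CPM. The log2 fold change was 0.44 (SE 0.165, adjusted p = 0.0140), and both WT libraries lay close together.

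The other 4 complex I mRNAs did not pass the test, and in each the groups overlapped. MT-ND4L had 1795 and 1469 CPM in WT and 1785 and 1999.7 CPM in HSF1-pLVX cells (log2 fold change 0.22, adjusted p = 0.281). MT-ND4 had 12495 and 10381 CPM against 12051 and 13350.5 CPM (0.16, adjusted p = 0.647). In both, HSF1-pLVX replicate 1 lay between the WT libraries. MT-ND5 had 4998 and 4127 CPM against 4459.7 and 5201 CPM (0.08, adjusted p = 0.759). MT-ND6, the only mRNA read from the minus strand, had 1663 and 1461 CPM against 1415 and 1642 CPM (-0.03, adjusted p = 0.880). Here the lowest library was HSF1-pLVX replicate 1 and the highest was WT replicate 1.

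Complex IV, cytochrome c oxidase, passes the electrons to oxygen, and its catalytic core is made of the products of MT-CO1, MT-CO2 and MT-CO3. Only MT-CO3 (chrM:9207-9990) was called, with 9008 and 7980.5 CPM in WT and 11906 and 14214 CPM in HSF1-pLVX cells. The groups did not overlap and the log2 fold change was 0.62 (SE 0.278, adjusted p = 0.0410), but with DESeq2 size factors in the same edgeR test it was 0.61 and not called (adjusted p = 0.0610). MT-CO1 (chrM:5904-7445), whose product binds the catalytic haem, had 14484 and 12237 CPM against 14597 and 16605 CPM. It differed by 0.23 (SE 0.298, adjusted p = 0.516), and WT replicate 1 and HSF1-pLVX replicate 1 were nearly equal. MT-CO2 (chrM:7586-8269), whose product accepts electrons from cytochrome c, had 6585 and 5091 CPM against 5539 and 6114 CPM. Its log2 fold change was 0.01 (SE 0.239, adjusted p = 0.981), and both HSF1-pLVX libraries lay between the WT libraries. Of the 3 mRNAs of this enzyme core, 1 therefore passed the test.

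The pair of mRNAs for ATP synthase, complex V, differed by nearly the same amount. MT-ATP6 (chrM:8527-9207) had 5026 and 4445 CPM in WT and 5253 and 6118 CPM in HSF1-pLVX cells (log2 fold change 0.26, SE 0.232, adjusted p = 0.320). MT-ATP8 (chrM:8366-8572) had 1417 and 1266 CPM against 1531 and 1703 CPM (0.27, SE 0.172, adjusted p = 0.159). Neither pair of groups overlapped. Without the replicate block, MT-ATP8 was called as well (adjusted p = 0.0430). The single complex III subunit on this genome is cytochrome b, and its mRNA MT-CYB (chrM:14747-15887) had 7839 and 6416 CPM against 7644 and 8759 CPM (0.21, SE 0.255, adjusted p = 0.486), with overlapping groups.

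By complex, the median log2 fold change of the mRNAs was 0.22 for complex I, 0.21 for complex III, 0.23 for complex IV and 0.27 for complex V, so that the complexes did not stand apart by their medians. With TMM in edgeR, 0 mRNAs were called lower and 0 were lower at an unadjusted p of 0.05, and the same counts came from DESeq2. The exception was scaling to the summed mRNAs, described below, where MT-CO2 fell. The number called higher rested on single libraries. Without the block, leaving out WT replicate 1 gave 10 of the 13 called higher and leaving out HSF1-pLVX replicate 2 gave 0, with 3 at an unadjusted p of 0.05. The share of all tested genes called in those fits was not recorded, so these counts have no background beside them. For all 13 mRNAs the log2 ratio within replicate number 2 was above that within number 1, and in number 1 it was above 0 for 7 of the 13. MT-ND2 had log2 ratios of 0.39 and 0.95 within numbers 1 and 2, and MT-CO2 had -0.25 and 0.26. The ratio rule of the study, a fold over 2 in both replicates, was met by 0 of the 13 mRNAs in the deposited normalized values.

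**Figure D2:**
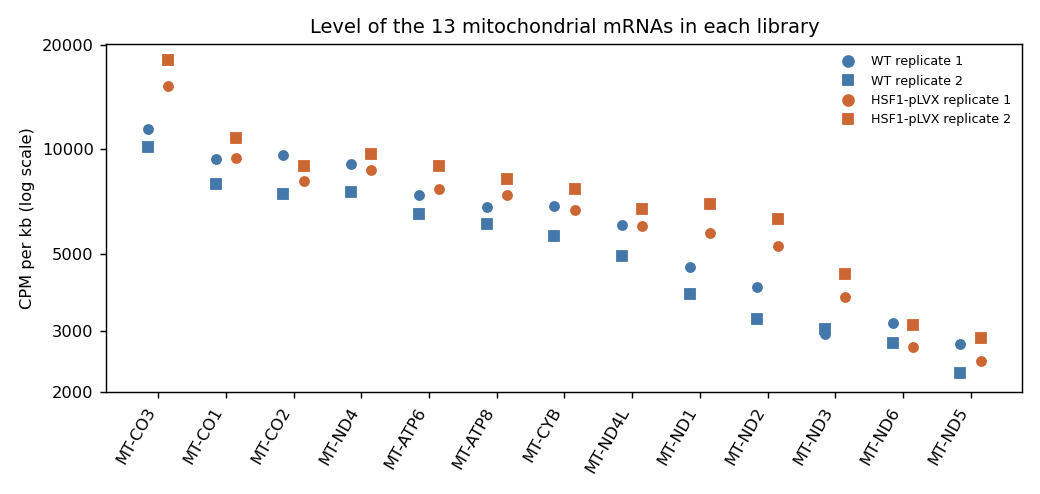
Level of the 13 chrM mRNAs in each library as CPM per kb of gene length, on a log axis, in the order of their WT means. Blue marks are WT, orange marks HSF1-pLVX, circles replicate 1 and squares replicate 2. MT-CO3 leads in all 4 libraries, and the orange marks of MT-CO3, MT-ND1, MT-ND2 and MT-ND3 lie above the blue ones.

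Compared per base, the mRNAs of one genome stood at different levels, and the order was much the same in both variants. On the scale of CPM per kb, MT-CO3 was the highest, with 10834 ± 927 in WT and 16658 ± 2082 in HSF1-pLVX cells (SD, n = 2), and the libraries of the next gene did not reach it. MT-CO1, MT-CO2 and MT-ND4 followed in WT at 8664 ± 1030, 8535 ± 1544 and 8300.1 ± 1085, and these neighbours did not differ beyond their spread. MT-ND5, the longest mRNA, was the lowest in both variants, with 2518 ± 340 in WT and 2666 ± 289 in HSF1-pLVX cells. In HSF1-pLVX cells the order changed only by MT-ND4 passing MT-CO2, at 9217 ± 667 and 8518 ± 594, and these overlapped. MT-ND1 stood below MT-ND4L in WT, at 4216 ± 529 against 5495 ± 776, but level with it in HSF1-pLVX cells, at 6353 ± 864 against 6372 ± 510. By total counts, MT-CO1 ranked first of all genes in each library, and 5 or 6 of the 10 genes with the most counts in WT and 7 of 10 in both HSF1-pLVX libraries were from chrM.

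When each mRNA was expressed as a share of the counts of all 13, the composition differed between the variants. Relative to the mean, the spread between replicates became smaller, except for MT-ND3 in WT, where it grew. MT-CO3 made up 12.03% and 12.67% of the mRNA counts in WT and 15.2% and 15.7% in HSF1-pLVX cells. MT-ND1 went from 5.86% and 5.83% to 6.997% and 7.362%. MT-ND2 went from 5.59% and 5.39% to 6.99% and 7.26%. These were the 3 mRNAs with a higher share in both HSF1-pLVX libraries than in both WT libraries. The share was lower in both for 7 mRNAs, namely MT-CO1, MT-CO2, MT-ND4L, MT-ND4, MT-ND5, MT-ND6 and MT-CYB. MT-CO2 fell from 8.79% and 8.08% of the mRNA counts to 7.06% and 6.76%. MT-ND4 took 16.7% and 16.5% in WT and 15.4% and 14.8% in HSF1-pLVX cells. MT-ND3, although called higher by its level, had a share of 1.36% and 1.67% against 1.66% and 1.67%, which overlapped. In edgeR with libraries scaled to the sum of the 13 mRNAs, which shifted the median of all tested genes to -0.27, MT-ND2 (0.38, adjusted p = 0.0125) and MT-CO3 (0.32, adjusted p = 0.00263) rose and MT-CO2 fell by 0.29 (adjusted p = 0.0461), while MT-ND1 differed by 0.30 (adjusted p = 0.0543). These values are relative to the other mRNAs and do not give a loss of MT-CO2 per cell.

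**Figure D3:**
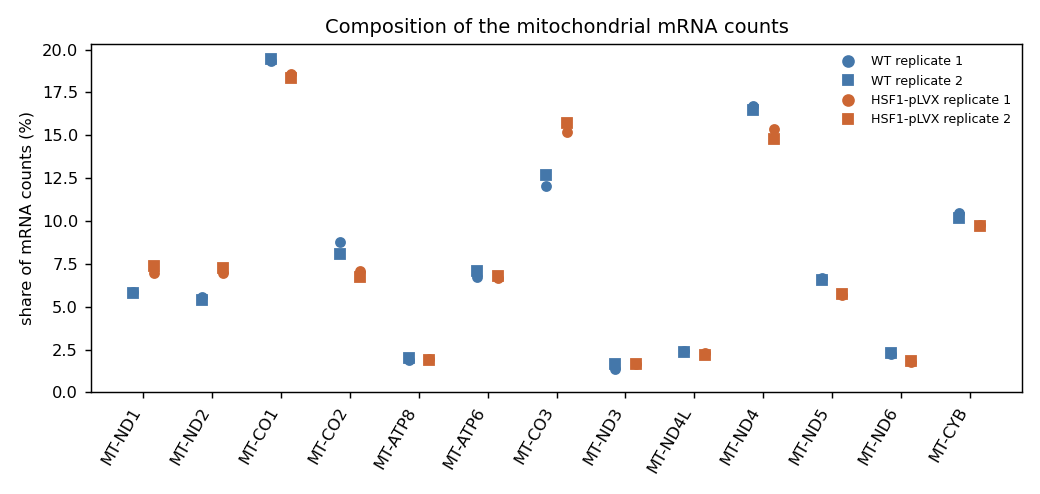
Share of each mRNA in the summed counts of the 13 chrM mRNAs of a library, in percent, in genome order, with blue WT and orange HSF1-pLVX marks and replicates 1 and 2 as circles and squares. MT-CO3, MT-ND1 and MT-ND2 lie higher in HSF1-pLVX cells, and MT-CO2, MT-ND4 and MT-ND5 are among the 7 that lie lower.

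The rRNAs of the mitochondrial ribosome lie near the start of the plus-strand transcript, with MT-TV between them. MT-RNR1, the small subunit rRNA (chrM:648-1601), had 2163 and 2086 CPM in WT and 2844 and 3250.1 CPM in HSF1-pLVX cells. It rose, with a log2 fold change of 0.52 (SE 0.196, adjusted p = 0.0142). MT-RNR2, the large subunit rRNA (chrM:1671-3229), had 10799 and 10526 CPM against 13046 and 15456 CPM. The groups did not overlap here either, and the log2 fold change of 0.41 (SE 0.287) did not pass the test with the block (adjusted p = 0.198), but did without it (adjusted p = 0.0122). Leaving out WT replicate 1, WT replicate 2 or HSF1-pLVX replicate 1 gave 2 rRNAs called without the block, and leaving out HSF1-pLVX replicate 2 gave 1. As depletion of rRNA can vary between libraries, its efficiency and the amount of rRNA in the cells cannot be told apart.

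The tRNAs, which carry the amino acids to the mitochondrial ribosome, had few counts. With lengths of 59 to 75 bases, they are shorter than the reads of 76 bp, and whether their reads came from mature tRNAs or from uncut precursors was not tested. In all, 15 and 17 of the 22 tRNAs had under 100 counts in the WT libraries and 12 and 13 in the HSF1-pLVX libraries. MT-TC, MT-TY and MT-TP, the tRNAs for cysteine, tyrosine and proline, took between 76.3 and 77.4% of the tRNA counts. Of the 21 tRNAs tested, 14 rose and 0 fell, beside 32.5% and 32.7% of all tested genes. A rise of at least 2-fold was called for 6 of the 14, beside 14.9% of all tested genes at that threshold. Over the 21, the median log2 fold change was 0.71. In 17 both HSF1-pLVX libraries lay above both WT libraries, an order that 42.1% of all tested genes showed. MT-TD is counted in the 14, the 6 and the 17, and MT-TR in the 17. As both passed the filter on low counts only through the HSF1-pLVX libraries, their direction was favoured by the filter. On the plus strand 9 of 14 rose with a median of 0.74, and on the minus strand 5 of 7 tested rose with a median of 0.55, so that higher tRNA levels were seen on both strands.

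MT-TC, whose anticodon GCA reads cysteine codons, had 135.0 and 123.4 CPM in WT and 157.7 and 188.8 CPM in HSF1-pLVX cells. It rose by 0.42 on the log2 scale (SE 0.110, adjusted p = 3.22e-04). Its neighbour MT-TY, with the anticodon GTA for tyrosine, had 42.2 and 43.9 CPM against 83.3 and 89.5 CPM. That is a rise of 1.004 (SE 0.104, adjusted p = 3.21e-21), which has the smallest adjusted p of all chrM genes. MT-TP, with the anticodon TGG for proline, had 47.5 and 48.1 CPM against 67.6 and 72.2 CPM, a rise of 0.55 (SE 0.103, adjusted p = 3.32e-07). These 3 genes lie on the minus strand, and the replicates lay close together for MT-TY and MT-TP but less so for MT-TC, which was not called without HSF1-pLVX replicate 2 (0.30, adjusted p = 0.0989). The leucine tRNAs also rose, MT-TL1 from 12.1 and 12.3 CPM to 19.5 and 25.1 CPM (0.86, SE 0.134, adjusted p = 4.68e-10). MT-TL2 went from 12.3 and 11.6 CPM to 21.0 and 18.2 CPM (0.71, SE 0.137, adjusted p = 6.45e-07).

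For the rarer tRNAs the counts themselves are given, with WT replicates 1 and 2 first. MT-TT, for threonine, had 49 and 52 counts in WT and 154 and 132 in HSF1-pLVX cells, a log2 fold change of 1.24 (adjusted p = 9.35e-08). MT-TH, for histidine, had 136 and 86 against 246 and 205 counts (0.77, adjusted p = 3.15e-05). The groups did not overlap in either. MT-TD, for aspartate, had 13 and 7 against 35 and 36 counts, which is the largest log2 fold change of any tested chrM gene at 1.56 (SE 0.416, adjusted p = 3.96e-04). With 7 counts in WT replicate 2, MT-TD passed the filter on low counts only through the HSF1-pLVX libraries, where it was higher. MT-TS1, for serine, had 23 and 13 against 48 and 54 counts (1.24, adjusted p = 5.89e-04). MT-TK, for lysine, had 23 and 10 against 38 and 44 counts (1.06, adjusted p = 0.00672). DESeq2 called none of these 3 (adjusted p = 0.136, 0.152 and 0.275), and neither did edgeR without HSF1-pLVX replicate 2 (adjusted p = 0.0730, 0.123 and 0.290). The size for MT-TD ran from 1.18 without WT replicate 2 to 2.08 without WT replicate 1, and that for MT-TK from 0.57, which was not called (adjusted p = 0.219), to 1.78. In each of these 3, WT replicate 1 held more counts than WT replicate 2, and both HSF1-pLVX libraries held more than either. MT-TF, for phenylalanine, had 28 and 44 against 86 and 73 counts (0.90, adjusted p = 0.00183). MT-TA, for alanine, had 10 and 11 against 29 and 22 counts (1.004, adjusted p = 0.0332). MT-TS2, the other serine tRNA, had 154 and 91 against 216 and 173 counts (0.42, adjusted p = 0.0299). The last of the called tRNAs was MT-TG, for glycine, with 46 and 70 against 120 and 79 counts (0.51, adjusted p = 0.0435). MT-TS2 and MT-TG were not called without the block (adjusted p = 0.0906 and 0.0790), and MT-TS2 was at 0.06 without WT replicate 2. MT-TA was called in no fit with 1 library left out. MT-TF was not called without WT replicate 1 (0.59) or HSF1-pLVX replicate 2 (0.84), nor by DESeq2 (0.88, adjusted p = 0.188).

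The 7 tested tRNAs that did not pass included those with the fewest counts. MT-TR had 7 and 9 counts in WT and 23 and 14 in HSF1-pLVX cells (log2 fold change 0.92, adjusted p = 0.0855), and MT-TW had 13 and 10 against 23 and 18 (0.56, adjusted p = 0.264). In both, the HSF1-pLVX libraries held more counts than the WT libraries. MT-TR also passed the filter on low counts only through the HSF1-pLVX libraries. MT-TI had 67 and 97 against 84 and 70 counts (-0.34, adjusted p = 0.188), and after normalization both HSF1-pLVX libraries lay below both WT libraries. MT-TM differed by -0.25, MT-TQ by -0.04, MT-TV by 0.10 and MT-TE by 0.29 on the log2 scale. MT-TN was listed with 0 counts in 3 libraries and 1 in HSF1-pLVX replicate 2, and was not tested. Of all tested genes, 32.7% were called higher without the block, and the share with DESeq2 or with a library left out was not recorded. The number of tRNAs called higher was 14 with the block, 12 without it, and 6 with DESeq2 and the block (MT-TL1, MT-TC, MT-TY, MT-TL2, MT-TT and MT-TP). Without the block and with HSF1-pLVX replicate 2 left out it was 5 (MT-TL1, MT-TY, MT-TL2, MT-TT and MT-TP). When WT replicate 1 was left out in the same way, MT-TI was called lower (-0.59, adjusted p = 0.0371).

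**Figure D4:**
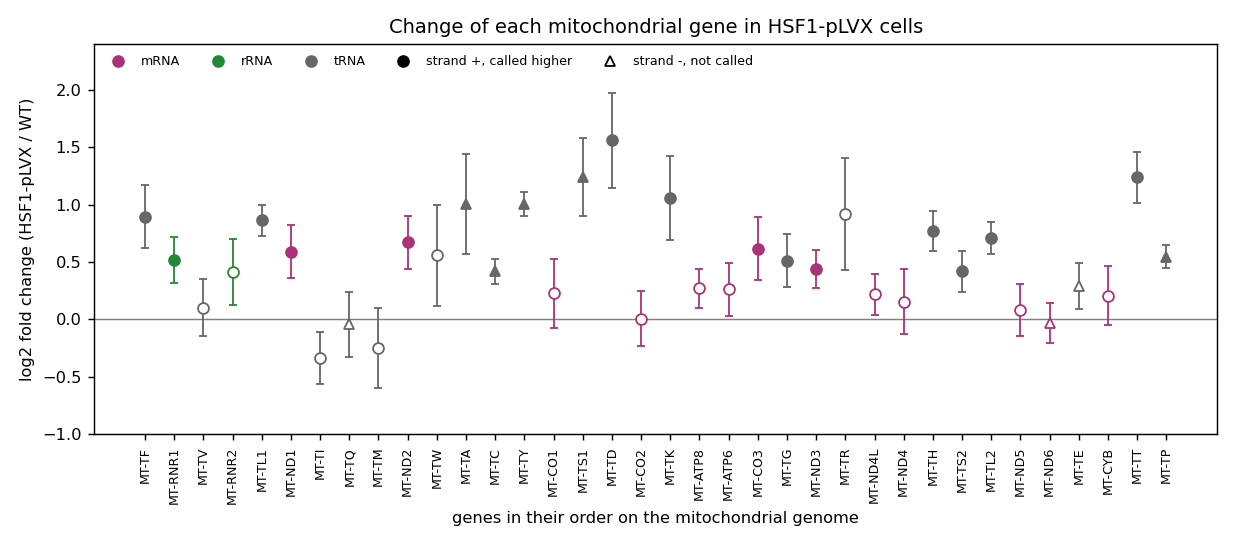
Log2 fold change (HSF1-pLVX over WT) of the 36 tested chrM genes in their order along the genome, with bars of 1 SE. Filled marks were called at an adjusted p of 0.05 and open marks were not; circles lie on the plus strand and triangles on the minus strand, and purple, green and grey stand for mRNA, rRNA and tRNA. The tRNAs reach 1.56 at MT-TD, while the mRNAs stay between -0.03 and 0.67.

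Nuclear copies of chrM genes and overlapping genes limit how exactly reads can be assigned, since the settings for overlap, strand and reads with several matches are not given in the sources used here. Of 404 nuclear genes named as copies, 67 had counts, and they held 0.0979% and 0.0900% of the WT counts and 0.115% and 0.130% of the HSF1-pLVX counts. MTND2P28 (chromosome 1), the copy of MT-ND2, had 4188 and 3791 counts in WT and 8152 and 7534 in HSF1-pLVX cells and rose by 0.72 on the log2 scale (adjusted p = 1.44e-08), beside 0.67 for MT-ND2. MTATP6P1 (chromosome 1), the copy of MT-ATP6, had 14191 and 11855 against 18691 and 17451 counts (0.22, adjusted p = 0.185), beside 0.26 for MT-ATP6. In these pairs the copy and the chrM gene had nearly the same log2 fold change. Among copies with fewer counts, some changed in the direction of their gene and some did not. MTND4P12 (chromosome 5) had 253 and 202 against 361 and 303 counts and differed by 0.28 (adjusted p = 0.0704), beside 0.16 for MT-ND4. MTCO1P12 (chromosome 1) had 290 and 810 against 389 and 358 counts, with WT replicate 2 above the other 3 libraries, and fell by 0.67 (adjusted p = 2.10e-07), beside 0.23 for MT-CO1. MTCO3P12, with 19 and 17 against 49 and 48 counts, rose by 1.17 (adjusted p = 0.00144), beside 0.62 for MT-CO3. MTND1P23, with 16 and 8 against 41 and 36 counts, rose by 1.42 (adjusted p = 7.78e-04), beside 0.59 for MT-ND1. Whether such reads came from the copies or from chrM was not tested.

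The nuclear genes that copy and express the mitochondrial genome were taken as a list of 79, of which 77 were tested, and 41 rose while 8 fell. These are 53.2% and 10.4% of the tested members, beside 32.5% and 32.7% of all genes, and the median log2 fold change was 0.37. For transcription, 3 of 9 rose. POLRMT, the mitochondrial RNA polymerase, had 46.9 and 43.4 CPM in WT and 44.3 and 45.7 CPM in HSF1-pLVX cells (-0.01, adjusted p = 0.969). TFAM, which packages mitochondrial DNA and bends it at the promoters, had 20.62 and 24.004 CPM against 47.6 and 45.0 CPM and rose by 1.06 (SE 0.113, adjusted p = 9.64e-20). TFB2M, which melts the promoter with the polymerase, rose by 0.59 (adjusted p = 5.39e-05), from 10.9 and 13.2 CPM to 17.5 and 18.7 CPM. The polymerase and its elongation factor TEFM (-0.23, adjusted p = 0.333) thus did not pass the test, whereas both promoter factors were higher.

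For RNA stability, 5 of 8 rose and 1 fell. LRPPRC, which together with SLIRP binds and protects the mitochondrial mRNAs, had 92.0 and 92.7 CPM in WT and 264.4 and 260.9 CPM in HSF1-pLVX cells. It rose by 1.51 (SE 0.115, adjusted p = 8.00e-38), which is more than any chrM mRNA. SLIRP itself rose by 0.41 (adjusted p = 7.02e-04), from 26.6 and 25.5 CPM to 33.7 and 35.5 CPM. The enzymes that degrade these RNAs rose as well, with PNPT1 going from 22.6 and 25.7 CPM to 34.9 and 33.3 CPM (0.50, adjusted p = 3.76e-05). SUPV3L1, the helicase that works with PNPT1, had 21.4 and 20.7 CPM against 34.3 and 35.9 CPM (0.74, adjusted p = 1.17e-09). REXO2, which removes the short products of RNA decay, fell by 1.03 (adjusted p = 2.17e-20), from 170.0 and 173.9 CPM to 85.5 and 83.1 CPM. Genes on both the protecting and the degrading side therefore rose.

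In the other groups, 5 of 14 processing genes rose and 2 fell, 8 of 13 genes of the nucleoid and DNA replication rose and 0 fell, and 11 of 17 genes of RNA modification rose and 2 fell. Of the genes of nucleotide supply, 4 of 8 rose and 3 fell, and of the transcriptional coactivators and nuclear factors 5 of 8 rose and 0 fell. The largest rises on the whole list were in the last group. PPARGC1A, a coactivator of mitochondrial biogenesis, had 0 and 5 counts in WT and 16 and 29 in HSF1-pLVX cells (log2 fold change 2.96, SE 0.605, adjusted p = 2.85e-06), and its size rests on very few counts. It passed the filter on low counts only through the HSF1-pLVX libraries, where it was higher, and is counted among the 41 genes of the list that rose. PPARGC1B, a related coactivator, went from 1.76 and 2.58 CPM to 13.6 and 14.3 CPM (2.69, adjusted p = 3.36e-40). MYC, a transcription factor with many targets in growth and mitochondrial function, went from 80.5 and 89.9 CPM to 535.8 and 523.6 CPM (2.64, adjusted p = 1.28e-86). The largest falls besides REXO2 were those of SLC25A4, an ADP/ATP carrier of the inner membrane (34.3 and 35.5 CPM against 12.7 and 12.5 CPM, -1.47, adjusted p = 3.78e-31), and of ALKBH1, a tRNA-modifying enzyme (11.2 and 10.7 CPM against 7.65 and 6.85 CPM, -0.60, adjusted p = 7.08e-04). Without the block 9 genes of the list fell, and 5 did when HSF1-pLVX replicate 2 was left out as well.

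**Figure D5:**
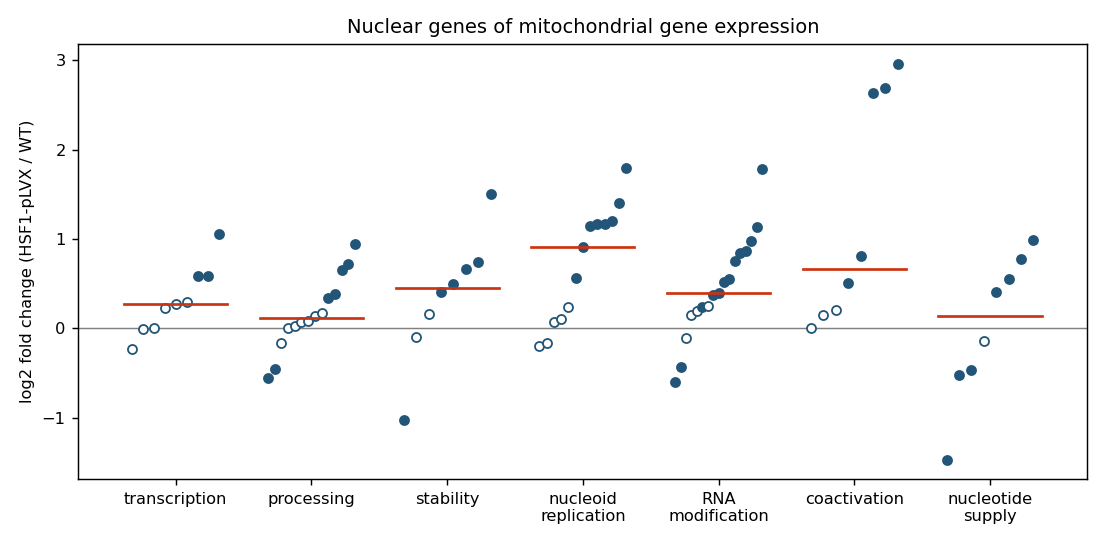
Log2 fold change (HSF1-pLVX over WT) of the 77 tested nuclear genes of mitochondrial gene expression by group. Each point is a gene, filled when called in either direction at an adjusted p of 0.05, and the red lines are group medians. The group of the nucleoid and replication has 8 of 13 called higher, and transcription has 3 of 9.

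The nuclear-encoded subunits of the same respiratory complexes rose and fell in equal number. Of 79 such genes, 75 were tested, and 18 rose and 18 fell, which is 24% each way beside 32.5% and 32.7% of all genes, with a median log2 fold change of 0.03. Within complex I, 5 of 33 tested nuclear subunits rose and 10 fell, beside 3 rises and 0 falls among the 7 chrM mRNAs. NDUFV1, which binds the flavin that accepts electrons from NADH, had 115.8 and 112.1 CPM in WT and 220.2 and 243.1 CPM in HSF1-pLVX cells and rose by 1.02 (adjusted p = 1.34e-18). NDUFC1, an accessory subunit, had 33.9 and 39.1 CPM against 20.0 and 19.8 CPM and fell by 0.87 (adjusted p = 4.71e-13). Both were chosen after their values were seen, as the largest rise and fall of the list. In complex IV 2 of 12 nuclear subunits rose and 4 fell, in complex III 3 of 9 rose and 1 fell, and in complex V 5 of 17 rose and 3 fell. Complex II, which has no subunit on chrM, had 3 of 4 subunits higher. Whether the chrM and nuclear subunits differ in their change was not tested. Without the block 19 nuclear subunits rose, and 10 did when HSF1-pLVX replicate 2 was left out as well.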

How the data were processed

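The authors sequenced rRNA-depleted total RNA (paired ends, 76 bp), mapped the reads with HISAT2 2.0.5 on hg38, handled the alignments with SAMtools 1.13 and obtained counts per gene from featureCounts 1.6.5. The values deposited are raw counts, used here as deposited. The annotation is GENCODE release 26 by the table's own name, and symbols came from release 44 (41805 genes named). A further table deposited by the authors holds log2-like values of 22321 rows normalized with DESeq2 1.32.0, with all 13 chrM mRNAs, and was used only for the ratio rule of the study.

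Samples were grouped by their titles. The test was edgeR 4.0.16 under R 4.3.3 (TMM, filterByExpr with its defaults, quasi-likelihood test, replicate number as a block, Benjamini-Hochberg adjustment over 15830 genes, call at an adjusted p of 0.05), after a trial on simulated data. The SE is the log2 fold change divided by the square root of F. The block was kept because the study takes ratios within replicate number. Same-numbered deviations from the group means correlated at -0.0147 over all tested genes, -0.114 above 8 CPM and -0.421 over the 36 chrM genes, so the data give no sign that the numbers pair the libraries. The prior degrees of freedom were infinite with the block and 11.9 without it. With the block, every p-value therefore draws on the common spread of genes at like levels and not on the gene's own spread. Replicates differed by more than sampling noise (chi-square per degree of freedom 4.39 for WT and 5.30 for HSF1-pLVX). TMM factors ran from 0.9635 to 1.04.

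Shares were compared with the exact permutation test over libraries, and intervals cover counting error only. The alternatives were DESeq2 1.42.0, other scalings, no filter, a 2-fold minimum, no block, each library left out, other denominators and, added after seeing the data, crossed pairing. Sequences were read from the hg38 sequence of chrM. Members, lists and named genes were chosen with earlier results of these data known. By that choice all 37 chrM genes, the 8 best known nuclear factors of mitochondrial RNA (POLRMT to SUPV3L1) and the 3 largest rises and falls on the nuclear list were named.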

Additional observations from a re-analysis of the deposited data

How the results depend on the processing

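The cause of each change below was not tested. The replicate numbers share nothing that the sources state, and without the replicate block 5 mRNAs (MT-ATP8 added), 2 rRNAs and 12 tRNAs were called higher, where 5175 genes (32.7%) were. Pairing the libraries crosswise gave 9 mRNAs, 2 rRNAs and 14 tRNAs. Scaling by library size alone or applying no filter gave 2 rRNAs called. DESeq2 called 3 mRNAs, 2 rRNAs and 6 tRNAs, and of the nuclear lists 5 genes of mitochondrial gene expression lower and 11 respiratory chain genes higher and 10 lower. With a 2-fold minimum, 0 mRNAs, 0 rRNAs and 6 tRNAs were higher, the genes of mitochondrial gene expression gave 13 higher and 2 lower, and the respiratory chain genes 1 and 0. Leaving out each library in turn, without the block and with a lone library assumed to vary like the other group, gave 0 to 10 mRNAs, 1 to 2 rRNAs and 5 to 11 tRNAs higher, 0 to 1 tRNAs lower, 5 to 7 genes of mitochondrial gene expression lower and 10 to 22 respiratory chain genes higher. For these settings, other than no block and the 2-fold minimum, the share of all tested genes called was not recorded. Against nuclear counts alone the tRNA share differed by 0.0186 points.

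Signs turned only for genes that were not called with the block. Scaled to the sum of the 13 mRNAs, MT-TV changed by -0.19, MT-CO1 by -0.0685, MT-CO2 by -0.29, MT-ATP8 by -0.0244, MT-ATP6 by -0.0320, MT-ND4L by -0.0757, MT-ND4 by -0.14, MT-ND5 by -0.21, MT-TE by -0.0042 and MT-CYB by -0.0880. MT-CO2 was also at -0.0051 with DESeq2 size factors, -0.0210 with DESeq2 and -0.0029 without the replicate block. By library size alone MT-TQ was at 0.0173 and MT-ND6 at 0.0275. With 1 library left out, MT-TV ran from -0.0848 to 0.31, MT-TQ from -0.14 to 0.0647, MT-CO2 from -0.19 to 0.21, MT-ND5 from -0.0670 to 0.24 and MT-ND6 from -0.14 to 0.0799. With all libraries kept, 230 of the tested single-gene comparisons kept their sign and their side of the threshold, 31 lost and 12 gained a call and 15 turned their sign. The deposited normalized values, which were not tested, gave -0.0210 for MT-CO2. The median log2 fold change of the mRNAs was between 0.20 and 0.29 under the other scalings, filters, pairings and tests, -0.0685 when scaled to their own sum, 0.09 without WT replicate 2 and 0.37 without WT replicate 1. With 2 libraries a group the shares cannot reach a p below 0.333, and counts under 100 limit most tRNAs.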

Other observations

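Ratios between neighbouring chrM genes, taken per base within each library, do not depend on the scaling of libraries. MT-CO3 relative to MT-ATP6, the gene before it on the same transcript, was 1.557 and 1.559 in WT replicates 1 and 2 and 1.969 and 2.018 in HSF1-pLVX cells, a log2 difference of 0.36. MT-ATP8 relative to MT-ATP6, which share a transcript, was 0.927 and 0.937 against 0.959 and 0.916, and the groups overlapped. The gene pair MT-ND4L and MT-ND4, also on one transcript, had a ratio of 0.667 and 0.657 against 0.687 and 0.695.

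Other ratios compared genes further apart. MT-CO3 relative to MT-CO2 was 1.19 and 1.37 in WT and 1.88 and 2.03 in HSF1-pLVX cells. MT-ND2 relative to MT-ND5 was 1.457 and 1.431 against 2.139 and 2.196. The other direction was seen for MT-ND6 relative to MT-CYB, with 0.461 and 0.495 against 0.402 and 0.407. MT-RNR2 relative to MT-RNR1 was 3.06 and 3.09 against 2.81 and 2.91. Between adjacent tRNAs of the minus strand, MT-TY relative to MT-TC was 0.313 and 0.355 against 0.528 and 0.474. All of these but MT-ATP8 to MT-ATP6 differed without overlap, and the exact permutation test over libraries gave p = 0.333 for each, the smallest value possible with 2 libraries against 2 (1.0 for MT-ATP8 to MT-ATP6). These ratios were picked from a set of 12 after results were known and are given as descriptions.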
